A study of Mus musculus with 7 samples.

Results

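Transcripts of 10 complement genes, C1qa, C1qb, C1qc, C2, C3, C4b, Cfb, C3ar1, C5ar1 and Serping1, were read in bulk RNA sequencing of mouse heart. They were taken by symbol from a table of 23420 gene rows, and all 10 had a row. The 7 hearts came from animals between 3 and 6 weeks old, labelled as untreated. Control hearts (n = 4) were Ctla4+/+;Pdcd1-/- and ICI-myocarditis hearts (n = 3) were Ctla4+/-;Pdcd1-/-, so every animal carried the Pdcd1 deletion and the groups differed in the Ctla4 genotype. ICI stands for immune checkpoint inhibitor. The model rests on loss of 1 Ctla4 copy and of Pdcd1, the genes for the checkpoint receptors CTLA-4 and PD-1, and not on an inhibitor drug. The labels name no promoter, Cre or cell type to which the loss is limited. The tissue is labelled as whole heart, and the protocol names frozen cardiac ventricle.

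Complement is a cascade of plasma and cell-surface proteins that tags targets and calls in phagocytes. The classical pathway starts when C1q binds antibody complexes or damaged cells and switches on the proteases C1r and C1s, which cut C4 and C2. The alternative pathway runs through C3 and factor B. Both routes cut C3, which releases the small peptide C3a, and then C5, which releases C5a. These peptides act through C3aR1 and C5aR1 on myeloid cells. C1 inhibitor, encoded by Serping1, blocks C1r and C1s. The liver makes most plasma complement, while C1q comes mainly from macrophages. Fibroblasts and other stromal cells also transcribe C3, C4 and C1s locally.

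All 10 genes were higher in ICI-myocarditis, and for each of them the lowest ICI-myocarditis library lay above the highest control. The increases ran from 3.88-fold for Serping1 to 15.9-fold for Cfb on limma's log2 scale, with a median log2 fold change of 2.59 against -0.02 over all 15236 genes tested. All 10 passed limma's adjusted p threshold of 0.05, with adjusted p between 0.00251 and 0.00601. Of all genes tested, 11.7% passed in the upward direction, and 17.3% had every ICI-myocarditis library above every control. Cfb ranked 193 and Serping1 ranked 1067 among the 15236 fold changes, ordered from the largest increase down. Values are normalized counts, that is, reads divided by the authors' size factor for each library, and a fold change compares ICI-myocarditis with control on log2(normalized count + 1). Together the 10 genes took 0.0548% ± 0.0191 of control reads (SD, n = 4), against 0.374% ± 0.178 of ICI-myocarditis reads (SD, n = 3). In bulk tissue, more cells of a type and more RNA per cell cannot be told apart.

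**Figure D1:**
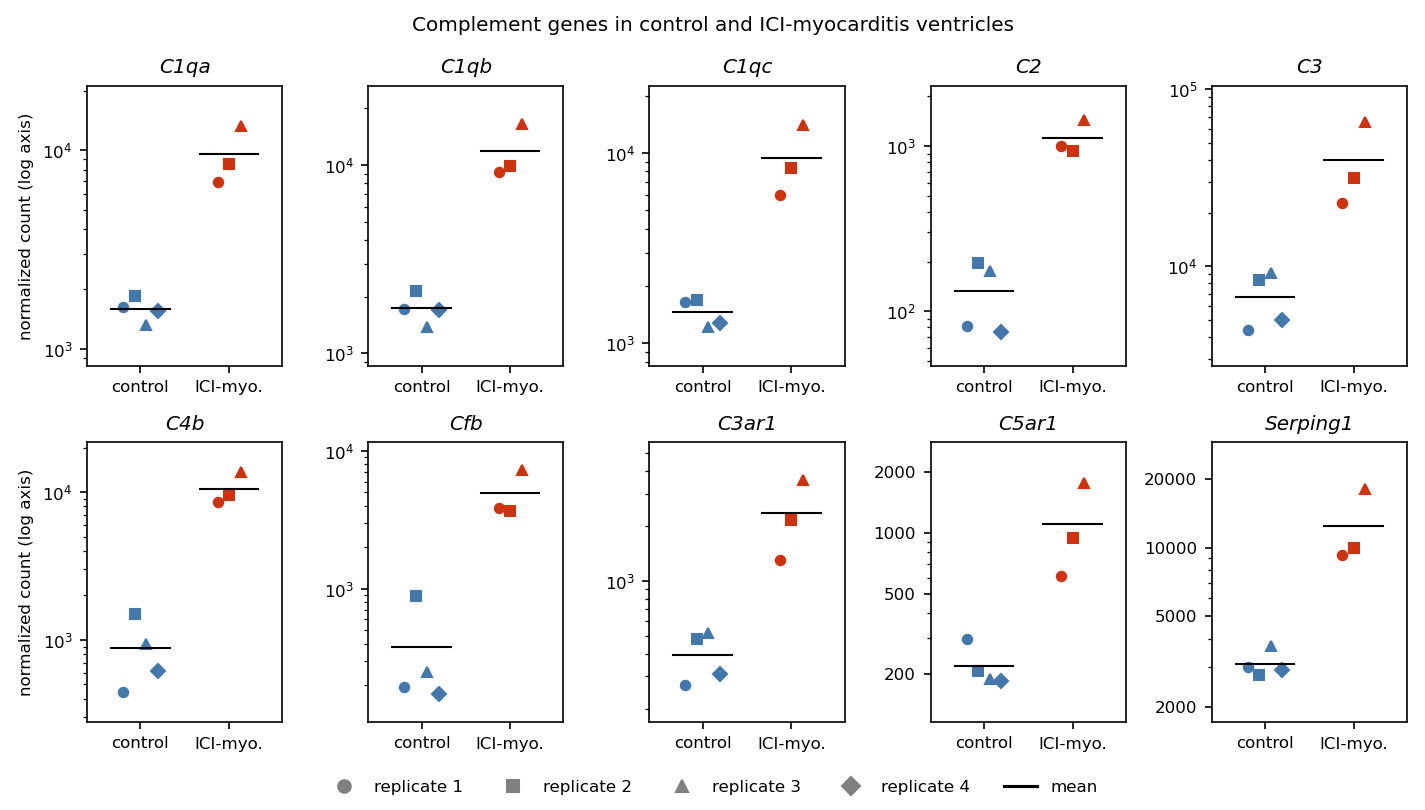
Normalized counts of the 10 complement genes in each library, on log axes that differ between panels. Symbols give the replicate number, colours the group and bars the group mean, and in every panel the 3 ICI-myocarditis libraries sit above the 4 controls.

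Libraries differed in ways that touch these values. Recovered depth was 20931730 to 39037176 reads per library. On the first principal component, which held 68.6% of the variance, control 2 (2.3) lay between the other controls (-96.6 to -61.1) and ICI-myocarditis (58.8 to 104.9). Control 2 was the highest control for 6 of the 10 genes (C1qa, C1qb, C1qc, C2, C4b and Cfb). Its 7 T cell markers with a row summed to 1590 normalized counts, against 125 to 184 in the other controls and 7134 to 10937 in ICI-myocarditis. ICI-myocarditis 3 was the highest of its group for all 10 genes. It also had the highest sum of the 14 macrophage markers with a row, 51693 against 35913 and 42607 in the other ICI-myocarditis libraries and 12989 to 18791 in controls. Control 4 carried liver transcripts, with 8 hepatocyte markers summing to 796 normalized counts against 78.2 to 86.7 in the other controls, and control 3 carried fat transcripts, with 4 markers summing to 159 against 8.07 to 12.3. Cardiomyocyte markers summed to between 1142200 and 2205400 normalized counts in controls and between 698270 and 1202300 in ICI-myocarditis, so heart muscle RNA was abundant in every library. The genotype labels could not be checked on the targeted genes. Ctla4 lay between 29.2 and 113.5 normalized counts in controls and between 250.7 and 372.9 in ICI-myocarditis, and Pdcd1 gave reads in all 7 libraries, up to 1481 normalized counts. Counts over a whole gene do not check a deletion of part of it.

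The C1q molecule is assembled from the A, B and C chains, whose genes lie together on chromosome 4 within 18.7 kb (GRCm38, chr4:136880129-136898803, minus strand). Promoter windows were at hand for 5 of the 10 genes from RefSeq (GRCm38.p6), each running from 250 bases before to 50 bases after the transcript start. Those of C1qb and C1qc are shown because their transcripts rose side by side. Capitals mark a match to GAGGAAG, a form of the site read by the myeloid factor PU.1, on either strand. Shorter or other forms of the site are not marked, so a window without capitals may still hold them.
C1qb, chr4:136886151-136886450, minus strand: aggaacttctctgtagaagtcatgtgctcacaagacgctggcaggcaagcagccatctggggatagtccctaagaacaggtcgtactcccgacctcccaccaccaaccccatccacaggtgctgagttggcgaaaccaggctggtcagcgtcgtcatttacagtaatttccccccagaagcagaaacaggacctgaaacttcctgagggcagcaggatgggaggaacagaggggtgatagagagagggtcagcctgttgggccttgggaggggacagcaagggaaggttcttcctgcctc
C1qc, chr4:136892865-136893164, minus strand: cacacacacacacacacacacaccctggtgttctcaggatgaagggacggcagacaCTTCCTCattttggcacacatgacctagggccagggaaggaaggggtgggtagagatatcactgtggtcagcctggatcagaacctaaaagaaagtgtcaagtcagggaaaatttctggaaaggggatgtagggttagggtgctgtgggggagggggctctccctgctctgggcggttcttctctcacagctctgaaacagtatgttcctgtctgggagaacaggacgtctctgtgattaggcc
The match in C1qc starts at -194 relative to the transcript start, on the reverse strand of the window, and 13.6% of the 32851 mouse windows of 300 bases hold these letters. The interferon-stimulated response element occurs in 3.44% of all windows, and did not occur in the windows of C1qb, C1qc, C3, C3ar1 or C5ar1. The motifs were chosen with these windows in view, and the C/EBP motif used for C3 replaced others after a first search, so these matches and absences describe the letters only.

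C1qb had 1721, 2148, 1378 and 1690 normalized counts in controls 1 to 4 and 9196, 9880 and 16408 in ICI-myocarditis libraries 1 to 3. The lowest diseased heart was 4.28 times the highest control, and C1qb rose by 2.74 on the log2 scale (limma, SE 0.261, adjusted p = 0.00251). C1qa lay between 1313 and 1847 in controls and at 6919, 8507 and 13186 in ICI-myocarditis, a log2 fold change of 2.55 (limma, SE 0.253, adjusted p = 0.00251). C1qc lay between 1222 and 1680 in controls and at 6016, 8296 and 14054 in ICI-myocarditis, a log2 fold change of 2.62 (limma, SE 0.294, adjusted p = 0.00251). Controls were close together for the C1q chains, with a highest-to-lowest ratio of 1.38 for C1qc, 1.41 for C1qa and 1.56 for C1qb. Per kilobase of exon, the level of C1qa was 0.787 to 0.997 of that of C1qb in the 7 libraries, and that of C1qc was 0.369 to 0.539. By normalized count the shares were 0.752 to 0.953 for C1qa and 0.654 to 0.956 for C1qc. The lower share of C1qc per kilobase thus depends on its annotated exon length, 1931 bases against 1088 for C1qb. Across the 7 libraries C1qa and C1qb had the highest Pearson correlation of any of the 45 pairs among the 10 genes, at 0.999 on log2 values. All such correlations share the difference between the groups, and the lowest, C2 with C5ar1, was 0.892.

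The proteases that C1q activates were read from a list of the rest of the complement system. C1ra, the main mouse C1r gene, lay between 287 and 582 normalized counts in controls and at 1080, 1666 and 3529 in ICI-myocarditis, and rose by 2.07 (limma, SE 0.393, adjusted p = 0.00920). C1s lay between 1006 and 1638 in controls and at 3667, 4211 and 7652 in ICI-myocarditis, and rose by 1.92 (limma, SE 0.301, adjusted p = 0.00490). C1rl, which encodes a C1r-like protease, rose by 2.02 (limma adjusted p = 0.0123), a call lost without ICI-myocarditis 3 (limma adjusted p = 0.0596). C1rb, a close copy of C1ra, was at most 45.8 normalized counts, with a log2 fold change of 1.76 that did not pass (limma adjusted p = 0.0575). Reads of C1ra and C1rb may be shared. The lectin pathway, another route, reads sugars on a target. Of its initiators, Masp1 (0.14), Masp2 (-0.41), Fcna (-0.53) and Colec11 (-0.66) did not pass the test. Colec12 (0.01), a further lectin gene of the list, did not pass either. Their limma adjusted p ran from 0.0694 to 0.990. With 15.7% of all genes called in either direction, the absence of calls does not set them apart. Masp1 turned negative without control 2 (-0.17). Colec11 had 773 to 1144 normalized counts in controls and 516 to 755 in ICI-myocarditis, without overlap. It passed in 2 of 16 alternatives, DESeq2 among them (adjusted p = 0.0401). Mbl1 and Mbl2, the mannose-binding lectins of liver, were at 2.5 in control 4 and at 0 in the other 6 libraries.

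C2 and C4b encode the subunits of the classical C3-cleaving enzyme, and both genes lie in the major histocompatibility complex on chromosome 17. C4b had 445, 1489, 942 and 618 normalized counts in controls 1 to 4 and 8518, 9581 and 13594 in ICI-myocarditis libraries 1 to 3. Its lowest diseased heart was 5.72 times its highest control, the widest separation among the 10 genes, and it rose by 3.71 (limma, SE 0.386, adjusted p = 0.00251). C4b (chr17:34728380-34743882) has a near-identical neighbour, C4a (chr17:34809092-34823464), so reads may be divided between them. The C4a row held 0.228% to 1.81% of the normalized counts of C4b in each library, and its log2 fold change of 1.46 did not pass (limma adjusted p = 0.0975). C2 had 81.7, 197, 176 and 75.1 normalized counts in controls and 995, 931 and 1441 in ICI-myocarditis, and rose by 3.18 (limma, SE 0.380, adjusted p = 0.00285). Controls 2 and 3 were higher than controls 1 and 4 for C2, as they were for C4b. C2 had the lowest level of the 10 genes per kilobase of exon in both groups, with control hearts at 34.3 ± 16.3 (SD, n = 4) and diseased hearts at 289.8 ± 71.8 (SD, n = 3).

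Cfb encodes factor B, the protease of the alternative pathway and a paralog of C2. It ends 85 bases before C2 begins on chromosome 17 (Cfb at chr17:34856374-34862518, C2 at chr17:34862604-34898265, both on the minus strand). An annotated readthrough gene, Gm20547, overlaps both and has no row in the table, so its reads could count to either. Cfb had 195, 891, 249 and 173 normalized counts in controls 1 to 4 and 3870, 3683 and 7235 in ICI-myocarditis libraries 1 to 3. Control 2 stood above the other controls, with a highest-to-lowest control ratio of 5.16. The log2 fold change of 3.99 (limma, SE 0.534, adjusted p = 0.00363) was the largest of the 10, and it was 4.52 without control 2. Cfp, which encodes properdin, the stabilizer of the alternative enzyme, lay between 190 and 532 in controls and between 663 and 753 in ICI-myocarditis. Its log2 fold change was 1.36 (limma, SE 0.340, adjusted p = 0.0265), and it passed in 10 of 16 alternatives.

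C3, the hub of all pathways, was the most abundant of the 10 by count. Its promoter window is shown because it holds the rarest of the motifs searched. Capitals mark a match to TTGCGNAA, bound by C/EBP factors of the acute-phase response, which 0.798% of all windows hold on either strand. The match starts at -45 relative to the transcript start.
C3, chr17:57228087-57228386, minus strand: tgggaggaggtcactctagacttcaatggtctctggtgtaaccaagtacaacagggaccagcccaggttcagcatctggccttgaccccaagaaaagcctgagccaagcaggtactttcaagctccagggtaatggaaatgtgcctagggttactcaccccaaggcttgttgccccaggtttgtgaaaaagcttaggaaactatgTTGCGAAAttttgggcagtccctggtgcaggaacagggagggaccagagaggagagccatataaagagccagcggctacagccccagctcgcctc
C3 had 4389, 8324, 9160 and 4938 normalized counts in controls 1 to 4 and 22859, 31468 and 65259 in ICI-myocarditis libraries 1 to 3. The diseased hearts spread over a 2.85-fold range, and the lowest of them was 2.50 times the highest control. C3 rose by 2.50 (limma, SE 0.418, adjusted p = 0.00601), and by 2.07 without ICI-myocarditis 3. Control 4, which carried the liver transcripts, had the second lowest control C3. Control 3, which carried the fat transcripts, had the highest control C3, and without it the log2 fold change was 2.67. The part of liver or fat RNA in these C3 values was not tested.

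C3ar1 encodes the C3a receptor. It had 270, 481, 517 and 308 normalized counts in controls 1 to 4 and 1307, 2151 and 3592 in ICI-myocarditis libraries 1 to 3, and rose by 2.51 (limma, SE 0.364, adjusted p = 0.00407). C3ar1 followed C3 across the libraries, with a Pearson correlation of 0.997 on log2 values over 7 libraries. C5ar1 encodes the main C5a receptor of myeloid cells, neutrophils above all. Its normalized counts were 295, 205, 188 and 184 in controls and 611, 946 and 1767 in ICI-myocarditis, where it rose by 2.23 (limma, SE 0.349, adjusted p = 0.00482). Control 1 was the highest control for C5ar1 and the lowest for C3ar1, C3 and C4b. Levels of neutrophil markers differed. S100a8 and S100a9 reached at most 37.5 and 56.3 normalized counts, both in control 4, and Mpo and Elane at most 4.09 and 1.23. Csf3r, the receptor for the growth factor of neutrophils, had 36.3, 179, 79.3 and 28.8 normalized counts in controls 1 to 4 and 282, 462 and 820 in ICI-myocarditis libraries 1 to 3. It alone of the 3 neutrophil markers tested passed, with a log2 fold change of 2.91 (limma adjusted p = 0.0140). Their part in the C5ar1 increase was not tested.

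C5ar2, a second receptor for C5a, lies beside C5ar1 on chromosome 7 and did not move with it. It had 73.6 to 115 normalized counts in controls and 92.1 to 118 in ICI-myocarditis, a log2 fold change of 0.16 (limma, SE 0.275, adjusted p = 0.746). The log2 ratio of C5ar1 to C5ar2 was 0.70 to 1.99 in controls and 2.72 to 3.90 in ICI-myocarditis. This pair was picked after its values were seen and has no test. The complement receptor integrins rose. Itgam went from 380 ± 101 (SD, n = 4) to 2385 ± 1078 (SD, n = 3) normalized counts, a log2 fold change of 2.59 (limma adjusted p = 0.00285), and its partner Itgb2 had a log2 fold change of 3.29 (limma adjusted p = 0.00594). Itgax, the subunit of complement receptor 4, rose by 4.44 (limma adjusted p = 0.0128), with control 2 at 576 normalized counts and the other controls between 28.8 and 41.3. That call was lost without ICI-myocarditis 3 (limma adjusted p = 0.0543) and with edgeR's quasi-likelihood test on recovered reads (3.19, adjusted p = 0.0714). Vsig4 (1.01), Cr2 (-0.45) and Cd93 (-0.90) did not pass, with limma adjusted p of 0.142, 0.760 and 0.159.

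Serping1 encodes C1 inhibitor, the brake on C1r and C1s. It had 2992, 2753, 3722 and 2899 normalized counts in controls 1 to 4 and 9293, 10013 and 18201 in ICI-myocarditis libraries 1 to 3. The controls spanned a 1.35-fold range, the narrowest of the 10 genes, and Serping1 rose by 1.96 (limma, SE 0.276, adjusted p = 0.00385), the smallest of the 10 fold changes. Of the 4 other soluble regulators tested, limma called 2 lower and none higher, beside 4.0% lower and 11.7% higher over all genes. Vtn, encoding vitronectin, which binds the terminal complex, fell from 1505 ± 235 (SD, n = 4) to 586 ± 256 (SD, n = 3) normalized counts, by 1.44 on the log2 scale (limma, SE 0.294, adjusted p = 0.0120). Cpn2, a subunit of the carboxypeptidase that inactivates C3a and C5a, had 208 to 243 normalized counts in controls and 67.5, 124 and 14.5 in ICI-myocarditis. It fell by 2.14 (limma, SE 0.597, adjusted p = 0.0402), and it passed in 9 of 16 alternatives. Clu, encoding clusterin, had a log2 fold change of 0.88 (limma adjusted p = 0.0878). Its normalized counts were 7939 to 16914 in controls and 19837 to 27059 in ICI-myocarditis, without overlap. It passed as higher in 2 of 16 alternatives, DESeq2 among them (adjusted p = 0.0303).

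None of the 7 tested regulators held in the cell membrane passed limma's threshold, and 0 of them passed with edgeR or DESeq2, beside 15.7% of all genes called by limma in either direction, so the count of 0 of 7 does not set them apart. At an unadjusted p under 0.05 limma gave 1, Cd59b, which was at most 56.3 normalized counts. Cd55 had 491 ± 80.7 (SD, n = 4) and 482 ± 78.7 (SD, n = 3) normalized counts, Cr1l, the rodent regulator Crry, had 1808 ± 360 and 1467 ± 233, and Cd59a had 1983 ± 983 and 1148 ± 523. Their limma adjusted p were 0.956, 0.429 and 0.251. In the terminal pathway C6 stood out. C6 had 1.01, 7.40, 6.70 and 11.3 normalized counts in controls 1 to 4 and 161, 277 and 222 in ICI-myocarditis libraries 1 to 3, and rose by 5.09 (limma, SE 0.607, adjusted p = 0.00285). C6 was near the detection limit in controls, and the size of its fold change depends on the pseudocount (4.33 with a pseudocount of 5). C7 had 594 ± 64.8 (SD, n = 4) and 387 ± 109 (SD, n = 3) normalized counts (log2 fold change -0.65, limma adjusted p = 0.0872). C8g fell by 1.04 (limma, SE 0.306, adjusted p = 0.0481), and it passed in 6 of 16 alternatives. C8a, C8b and C9 were at 0 in all 3 ICI-myocarditis libraries and highest in control 4, where C8b and C9 had 3.75 normalized counts each.

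Of the 46 entries of the list for the rest of the system, 45 had a row and 33 reached 10 normalized counts in 3 or more libraries and were tested. Of these 33, 8 were higher, 3 lower and 22 not called, beside a background of 11.7% higher and 4.0% lower, and their median log2 fold change was 0.06. The 8 were C1ra, C1s, C1rl, C6, Cfp, Itgam, Itgax and Itgb2, and the 3 were C8g, Vtn and Cpn2. Without ICI-myocarditis 3 the list gave 7 calls in place of 11. C1rb, C4a, Hc and C6 reached the minimum in fewer than 3 controls and so passed the filter through the diseased hearts. Of the 12 genes left out, Cfd was the highest, at 92.7 in control 3, the library with fat transcripts. Fcnb was at 0 in all 7 libraries.

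**Figure D2:**
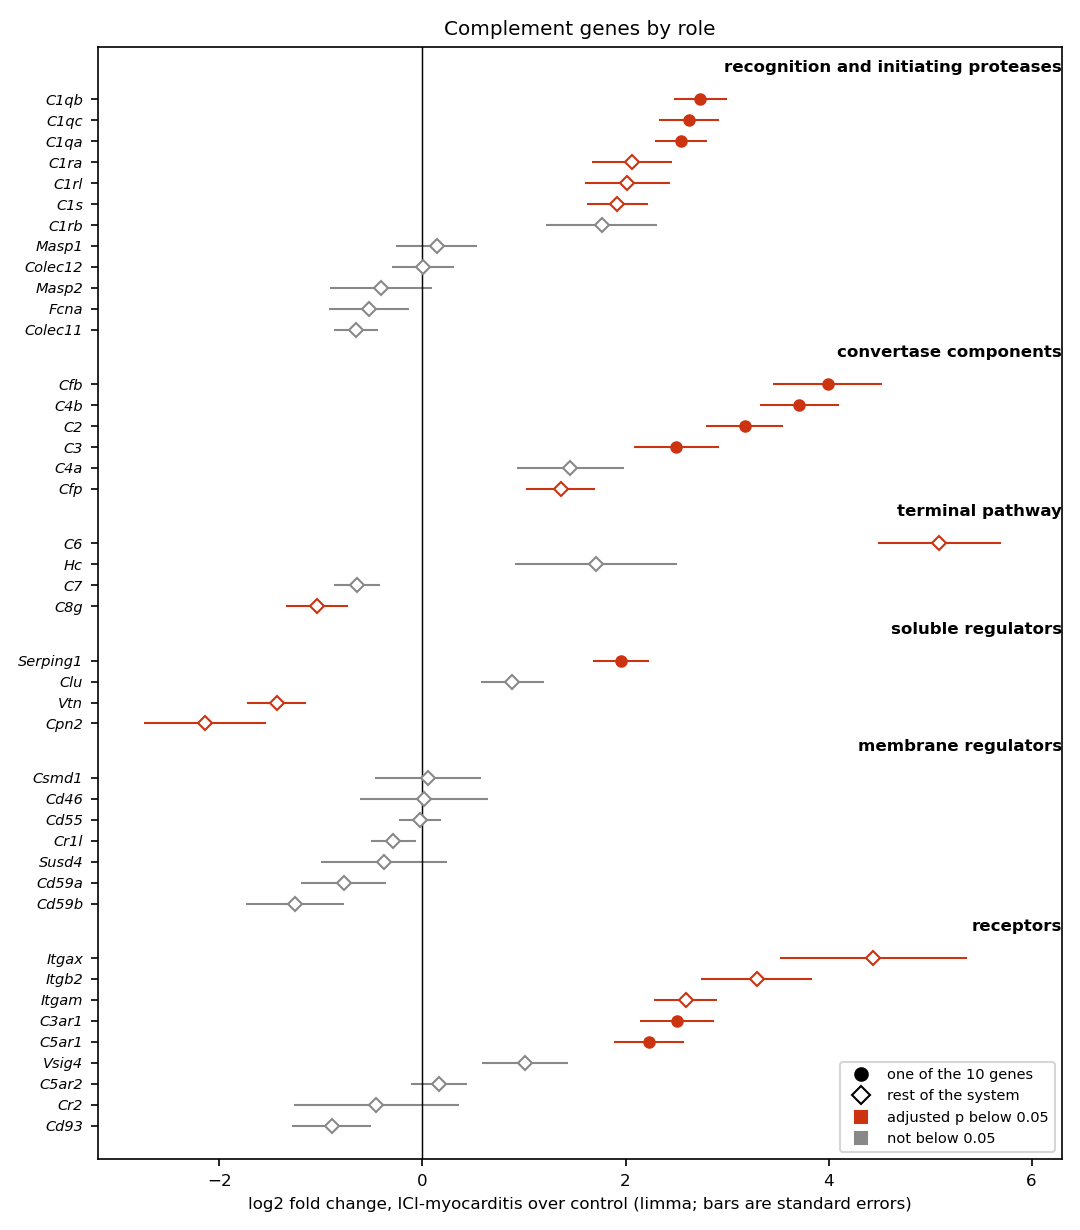
Log2 fold changes (ICI-myocarditis over control) of tested complement genes by role, with standard errors. Filled circles are the 10 genes described here, open diamonds the rest of the system, and red marks a limma adjusted p below 0.05. The 10 genes all lie to the right of 0.

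Levels of different genes were compared per kilobase of exon. In controls the order ran C1qb (1594 ± 291 normalized counts per kilobase, SD, n = 4), C1qa (1523 ± 211), Serping1 (1330 ± 186), C3 (1303 ± 465), C1qc (754 ± 125), C4b (153 ± 80.6), Cfb (133 ± 122), C3ar1 (91.5 ± 28.6), C5ar1 (84.8 ± 20.4) and C2. C1qa stood above Serping1 in 3 of 4 controls only. Serping1 and C3 did not differ beyond their spread, nor did C4b, Cfb, C3ar1 and C5ar1 between neighbours. In ICI-myocarditis C3 stood above Serping1 in all 3 libraries, at 7751 ± 4358 against 5377 ± 2128 per kilobase (SD, n = 3). C4b and Cfb were then at 1855 ± 470 and 1745 ± 708, both above C3ar1 (546 ± 268), C5ar1 (431 ± 231) and C2 in all 3 libraries.

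Macrophage markers rose with these genes. Of the 14 with a row, 10 passed upward and 1 downward, and none was at 0 in all libraries. Cd68 rose by 2.36 and Fcgr1 by 3.46, while Csf1r rose by 1.33 and Cd163, a marker of resident macrophages, fell by 0.92 (limma adjusted p = 0.00476, 0.00310, 0.0178 and 0.00799). Each gene was therefore also read against the mean log2 level of the 14 markers in the same library, a mean that was 1.66 higher in ICI-myocarditis. Relative to it Cfb was higher by 2.33 in ICI-myocarditis, C4b by 2.05 and C2 by 1.51, and for each of them all 3 diseased hearts exceeded all 4 controls (exact permutation p = 0.0571, 0.0286 and 0.0286, two-sided). C1qb was higher by 1.07, C1qc by 0.96, C1qa by 0.88, C3ar1 by 0.84 and C3 by 0.84 (exact permutation p between 0.0286 and 0.0857). For C1qc the groups overlapped, and for C3ar1 and C3 the lowest diseased heart barely exceeded control 3. C5ar1 and Serping1 were higher by 0.57 and 0.29, with overlapping groups (exact permutation p = 0.257 and 0.343). None of the 10 passed after adjustment over the 10 genes (lowest exact permutation adjusted p = 0.0816), 3 had an unadjusted p under 0.05, and 0.0286 is the smallest p that 35 splits allow. References of 1 gene, chosen after seeing the data, changed how many passed. Relative to Csf1r alone 8 of 10 passed, each at an exact permutation adjusted p of 0.0357. Among those 8 the differences ran from 0.62 for Serping1 to 2.38 for C4b, while Cfb and C5ar1 did not pass. Relative to Cd68 alone none passed, 1 (C4b, higher by 1.35) had an unadjusted exact permutation p under 0.05, and Serping1 was at -0.41.

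**Figure D3:**
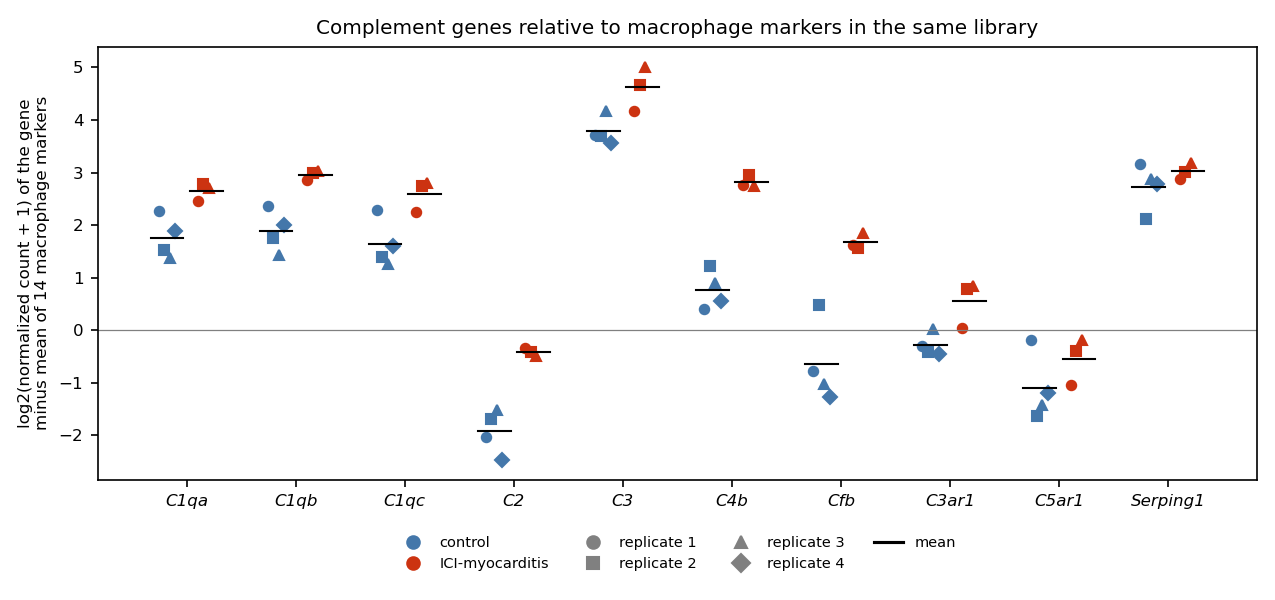
Log2 level of each gene minus the mean log2 level of 14 macrophage markers in the same library. Symbols give the replicate, colours the group and bars the group mean. C2, C4b and Cfb show the widest gaps between the groups, and C5ar1 and Serping1 overlap.

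Some fibroblast markers also rose. Of 8, 3 passed upward, namely the collagen genes Col1a1 (1.87), Col1a2 (1.63) and Col3a1 (1.42). Lum (0.51), Pdgfra (0.27), Dcn (0.11) and Dpt (0.11), also made by fibroblasts, did not pass (limma adjusted p = 0.373, 0.574, 0.877 and 0.839). Tcf21 (0.70) did not pass with limma either (adjusted p = 0.0823). Its normalized counts were nevertheless 276 to 376 in controls and 395 to 724 in ICI-myocarditis, without overlap. It passed with DESeq2 (adjusted p = 0.0401) and not with edgeR (adjusted p = 0.0736). The summed fibroblast markers were 56698 to 86863 normalized counts in controls and 136470 to 196930 in ICI-myocarditis. These sums were mostly the 3 collagen genes, and no other fibroblast marker passed limma's threshold. Dcn, the most abundant of the others, overlapped between the groups, at 8596 to 22998 in controls and 11574 to 19910 in ICI-myocarditis. All 7 T cell markers passed upward, and 4 of 6 endothelial markers passed downward. Hepatocyte markers summed to 88.4, 164.7 and 232.3 in ICI-myocarditis, mostly Ahsg, and Alb was at most 1.53 there against 425 in control 4. The part of these cell types in the complement values was not tested. Without control 4 the log2 fold changes were 3.597 for C4b, 3.74 for Cfb and 2.38 for C3.

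Ratios within a library compared genes of linked function. Cfb over C3 had a log2 ratio of -4.43 ± 0.858 in controls (SD, n = 4), against -2.94 ± 0.332 in ICI-myocarditis (SD, n = 3), a difference of 1.49 (exact permutation p = 0.0571, adjusted over 5 pairs 0.0952, two-sided). Control 2, at -3.22, lay just below the lowest diseased heart at -3.17. C1qa over Serping1 differed by 0.59 and C2 over C4b by -0.54, each with groups that did not overlap (exact permutation p = 0.0571 for both, adjusted 0.0952). Cfb over C2 differed by 0.82 and C3ar1 over C5ar1 by 0.28, with overlapping groups (exact permutation p = 0.114 and 0.686, adjusted 0.143 and 0.686). No pair passed, and 0 of 5 had an unadjusted p under 0.05. The SD of the 5 ratios ran from 0.080 (C3ar1 over C5ar1) to 0.332 (Cfb over C3) in ICI-myocarditis. In controls it ran from 0.319 (C2 over C4b) to 0.858 (Cfb over C3). For C3ar1 over C5ar1 the control SD was 0.702, with control 1 at -0.13.

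**Figure D4:**
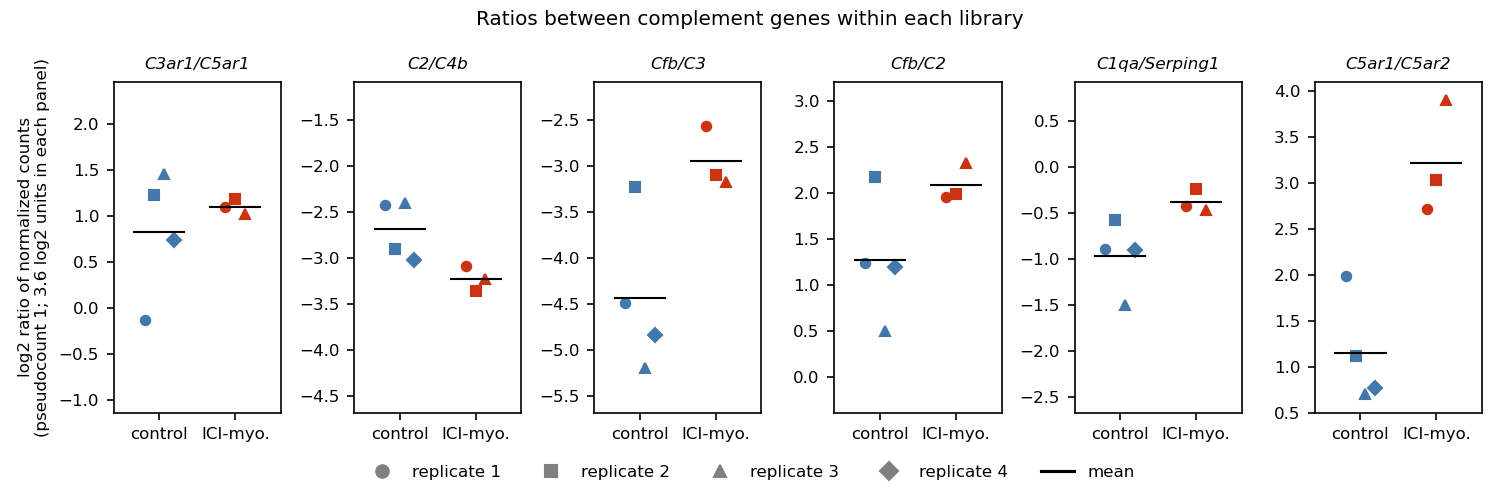
Log2 ratios between complement genes within each library (pseudocount 1), for the 5 tested pairs and for C5ar1 over C5ar2, which has no test. Each panel spans the same number of log2 units. The Cfb/C3 ratio of control 2 lies next to the ICI-myocarditis libraries, and the C5ar1/C5ar2 groups are the farthest apart.

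Genes outside the 10 with the most similar pattern were found by Pearson correlation of log2 values over the 7 libraries, among 11462 genes with a mean of at least 100 normalized counts. For C1qa the closest were Ticam2 (0.997), Zfp697 (0.996) and Naaa (0.995), and for C1qb Ticam2, Slc39a6 and Zfp697 (0.997 each). C1qc was closest to Thbs1 (0.997), Olfm1 and Sh3bgrl3 (0.996 each). C2 was closest to Clec4a3 (0.999), a C-type lectin of myeloid cells, then Gcnt1 (0.999) and Arl6ip1 (0.995). C4b was closest to Gatm (0.999), Cd84 (0.998) and Fcgr1 (0.997), the high-affinity IgG receptor of macrophages. Cfb was closest to the lymphocyte genes Ly9 (0.999) and Cd6 (0.998) and to Ubash3b (0.998). C3 was closest to C1s (0.996), Dse (0.996) and Tgfbr1 (0.995), and C3ar1 to Dse (0.995), Aldh1a2 and Tgfbr1 (0.993 each). C5ar1 was closest to Gna13 (0.998), Syk and Grn (0.994 each), and Serping1 to the matrix genes Cilp (0.997) and Col8a1 (0.996) and to Scpep1 (0.994). Between 198 genes (Serping1) and 745 genes (Cfb) exceeded 0.95. All of these correlations share the difference between the groups.

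In the authors' deposited table all 10 genes had an adjusted p below 0.05, from 1.99e-18 for C1qb to 6.93e-08 for C5ar1. The authors' deposited table gave log2 fold changes of 3.71 for Cfb and 3.596 for C4b. With edgeR's quasi-likelihood test on recovered reads all 10 passed, at adjusted p from 0.00444 to 0.00961, with 3.67 for Cfb and 3.57 for C4b.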

How the data were processed

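RNA of frozen cardiac ventricle from 7 mice was sequenced as stranded total RNA libraries, per the labels' protocols. STAR 2.7.3 and the builds GRCm38 and mm10 are named in the submitters' processing notes; how reads were assigned to genes, and with which annotation and strand setting, is not given in the sources used here. The per-library values are a normalized signal made by the authors, with the reads of a gene scaled by a single size factor for its library, as the values show. Other deposited columns are, per the file headers, the authors' log2 fold change and its error, their test score and their p-values, raw and adjusted. Dividing each column by its smallest value gave whole numbers within 0.001 for 100% of values, so read counts were recovered. For control 1 that step was 1.008, where whole numbers are a weaker sign.

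Genes reaching 10 normalized counts in 3 or more libraries entered limma 3.58.1 (R 4.3.3, trend and robust variance) on log2(normalized count + 1), with Benjamini-Hochberg adjustment over 15236 genes. A fold change on this scale understates changes of low genes. edgeR 4.0.16 and DESeq2 1.42.0 on recovered reads were alternatives (2071 and 3436 genes called, against 2392 with limma), beside other pseudocounts, filters and scalings, and each library left out in turn. Ratios were compared by exact two-sided permutation of the libraries. The 27 rows with names turned into dates, 0.143% of reads, were left out. Positions and exon lengths are from GENCODE M21 (GRCm38). The 10 genes, the lists and the tests were chosen with earlier results of these data known. Genes named are the 10 members, the called genes of the complement list, others of that list and cell type markers with their values, and the 3 genes most correlated with each member. Adgre1, Ly6g and Trac had no row under those symbols, and 1 complement entry (C1s2) had none. A gene of the complement list and a motif are counted or were searched but are not reported here.

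On simulated counts with 200 changed genes among 15250 tested, limma recovered 83% of changes of 2 and 9% of changes of 1 on the log2 scale, with 3.16% of calls wrong. edgeR gave the same shares over 15218 genes, and DESeq2 recovered 96% and 37% with 23.1% of calls wrong over 16533. The real limma fit called 2392 genes, many more than the 200 simulated. The simulation also held no library between the groups, as control 2 was. These shares may therefore differ in the real data. Recovered totals of 20931730 to 39037176 reads leave the spread between animals, not counting error, as the limit for all but low genes.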

Additional observations from a re-analysis of the deposited data

Results flagged for a closer look

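In groups of 4 controls, a library was singled out when its gap to the nearest other, on the log2 scale, exceeded the share of the group's range set by Dixon's critical value. Of 60 results examined, 4 met this, near the 3.0 that chance gives. Control 2 was high for Itgax (gap 0.881 of the range) and Itgb2 (0.922), which encode the subunits of complement receptor 4. Control 4 was high for the summed hepatocyte markers (0.956), and control 3 for the summed fat markers (0.865). None of the 10 complement genes, of their levels relative to macrophage markers or of their 5 ratios met it.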

How the results depend on the processing

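All 10 genes kept their direction and passed the threshold in all 16 alternatives (160 fits, log2 fold changes from 1.65 to 4.52, largest adjusted p 0.0240). Scaling by library total moved the median of all genes by 0.16 and the 10 genes by the same amount. DESeq2 called 3436 genes, 63.9% of them higher, against 2392 and 74.5% with limma, and scaling by library total gave 84.3% higher. Calls over all genes ranged from 983 to 3333 with a library left out: 1505 without control 1, 1294 without control 3, 1390 without ICI-myocarditis 2 and 983 without ICI-myocarditis 3. Calls in the rest of the complement system then ranged from 7 to 13. Same-numbered libraries of the groups had correlations of -0.271, -0.206 and -0.078, against -0.477 to 0.451 for libraries of different number. With 4 and 3 libraries these values cannot decide whether the numbers pair the animals, and the main fit did not pair them. With the replicate block, in which control 4 has no partner and drops out, 1777 genes, all 10 members and 11 others were called.

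Relative to macrophage markers the number passing was 8 with Csf1r alone as reference, and C5ar1 and Serping1 changed sign with Cd68 alone (-0.13 and -0.41). Leaving out a library gave 0 passing for these and for the ratios, but 3 against 3 and 4 against 2 libraries cannot give an exact permutation p below 0.100 and 0.0667. C3ar1 over C5ar1 ranged from -0.041 (without control 1) to 0.49 with a library left out.

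Sign changes in the rest of the system all concerned genes that did not pass, and their cause was not tested. With a library left out, Masp1 ranged from -0.17 (without control 2) to 0.43 and Cr2 from -1.15 to 0.15 (without control 2). Colec12 was -0.0197 with the replicate block and ranged from -0.31 to 0.25 with a library left out. Cd55 was 0.14 with scaling by library total and ranged from -0.15 to 0.0867. Cd46 was -0.0104 with a pseudocount of 5, -0.41 with edgeR, -0.38 with DESeq2 and -0.36 with the replicate block, and ranged from -0.36 to 0.48. Csmd1 was -0.15 with edgeR, -0.11 with DESeq2 and -0.35 with the replicate block, and ranged from -0.35 to 0.40.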
